A study of Homo sapiens with 4 samples.

Results

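The 7 genes described here encode the CDC2-like kinases CLK1, CLK2, CLK3 and CLK4, the O-GlcNAc transferase OGT, the O-GlcNAcase OGA and the methionine adenosyltransferase MAT2A. They were chosen by symbol, as genes known to be controlled by nuclear transcripts that keep an intron, by a rule that uses no measured value, although earlier results of these data were known when they were chosen. All 7 were found among the 51740 rows of the gene table and all 7 were among the 17658 genes tested. RNA was sequenced from nuclear and cytoplasmic fractions of HEK293T, a line derived from human embryonic kidney and expressing SV40 large T antigen. The cells of every library were wild type and crosslinked with formaldehyde, and there were 2 libraries of each fraction from independent biological replicates of this 1 cell line. Equal masses of RNA were made into libraries, so a value is relative to the other RNA of its fraction and cannot give the amount per cell. Reads over exons and introns were counted together, so spliced and unspliced RNA of a gene cannot be told apart here.

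A detained intron stays in a transcript that is otherwise spliced and polyadenylated, and that transcript is held in the nucleus. Removal of the intron releases a message for translation, so the nuclear pool can act as a reserve, and transcripts that are not spliced can be degraded in place. CLK kinases phosphorylate SR proteins, the splicing factors rich in arginine and serine, and inhibition of the kinases is known to change the splicing of their own detained introns. OGT adds and OGA removes O-linked N-acetylglucosamine on nuclear and cytosolic proteins, and the splicing of both transcripts is known to respond to the level of that sugar. MAT2A makes S-adenosylmethionine (SAM), and its splicing is known to respond to SAM through the methyltransferase METTL16.

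The annotation of the members was read from GENCODE 44 on hg38, a later release than the one used for counting. CLK1 lies at chr2:200853009-200864691 on the minus strand and CLK2 at chr1:155262868-155278491 on the minus strand. CLK3 lies at chr15:74598500-74645414 on the plus strand and CLK4 at chr5:178602664-178630615 on the minus strand. OGT lies at chrX:71533087-71575892 on the plus strand, OGA at chr10:101784443-101818465 on the minus strand and MAT2A at chr2:85539168-85545281 on the plus strand. The shortest span was 6.11 kb (MAT2A) and the longest 46.92 kb (CLK3), with CLK1 at 11.68 kb, CLK2 at 15.62 kb, CLK4 at 27.95 kb, OGA at 34.02 kb and OGT at 42.81 kb. The MANE Select transcripts, the reference transcript of each gene, of all 4 CLK genes had 12 introns. That of OGT had 21, that of OGA 15 and that of MAT2A 8.

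An intron was counted as annotated retained where an exon of a transcript of the type retained intron covered it in full. By this count CLK1 had 4 such introns (introns 2, 3, 4 and 7), CLK4 had 4 (introns 3, 4, 11 and 12) and CLK3 had 2 (introns 3 and 4). MAT2A had 3 (introns 2, 3 and 6), and its last intron, intron 8, was not among them. OGT had 1, intron 4, which is 3271 bases long, whereas CLK2 and OGA had 0. Of 13292 tested protein-coding genes with introns in a MANE Select transcript, 27.1% had at least 1 such intron. The annotation reflects transcripts seen in other samples and was not measured in these libraries.

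**Figure D1:**
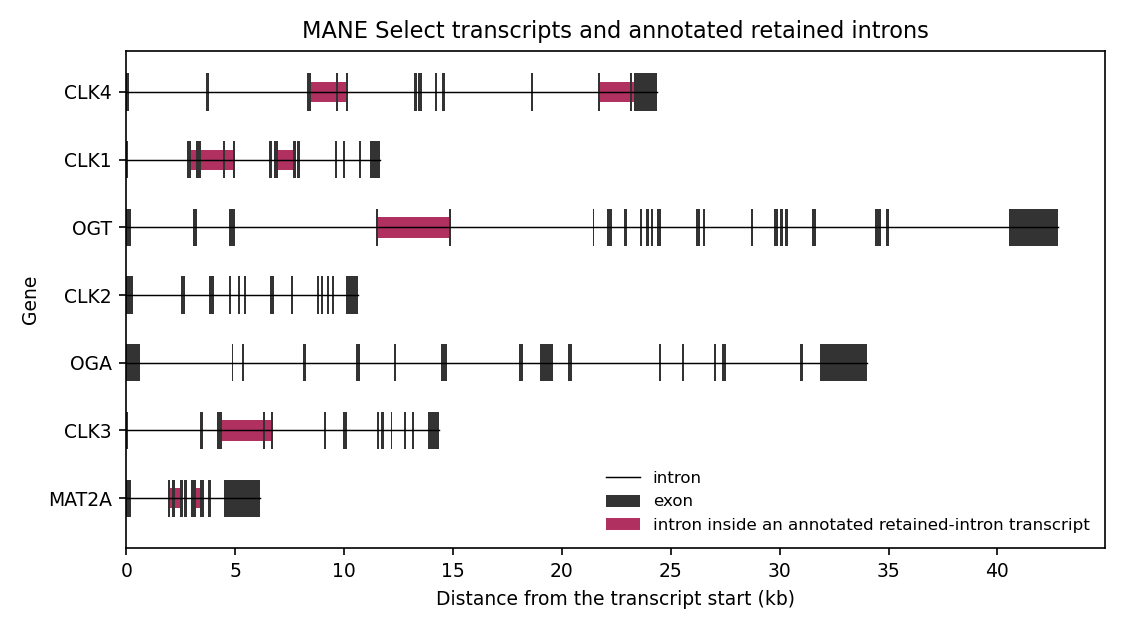
Exons (dark boxes) and introns (lines) of the MANE Select transcript of each member, drawn as distance in kb from the transcript start, with annotated retained introns as red boxes. Introns 3 and 4 are marked in CLK1, CLK3 and CLK4, intron 4 in OGT and introns 2, 3 and 6 in MAT2A, and no intron is marked in CLK2 or OGA.

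The splice sites on both sides of exon 4 of the CLK genes are shown because the introns that CLK1, CLK3 and CLK4 share as annotated retained are those next to it. Exon 4 is 91 bases long in CLK1 and CLK4, 88 in CLK2 and 97 in CLK3, and each length leaves a remainder of 1 on division by 3, so that leaving it out shifts the reading frame. The exons of CLK1 and CLK4 had the same base at 85 of 91 positions. All sequences are 5′ to 3′ from hg38. The donors give 3 exon and 6 intron bases, with the first 2 intron bases in capitals.
CLK1 intron 4 donor at chr2:200860119-200860127, minus strand: gatGTatag
CLK4 intron 4 donor at chr5:178617338-178617346, minus strand: gatGTatag
CLK3 intron 4 donor at chr15:74622214-74622222, plus strand: gatGTacag
CLK2 intron 4 donor at chr1:155268702-155268710, minus strand: gatGTacaa

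The CLK1 and CLK4 donors were the same at all 9 bases, and among 182029 introns of MANE Select transcripts of protein-coding genes those letters stood at 2, which are these. The letters of the CLK3 donor and of the CLK2 donor each stood at 1 intron. The first 5 letters, GATGT, which all 4 CLK genes share at this site, were found at 0.699% of those introns. CLK2 thus carries the start of this donor without an annotated retained intron. The acceptors of intron 3, which open onto exon 4, are given as 20 intron and 3 exon bases with the last 2 intron bases in capitals.
CLK1 intron 3 acceptor at chr2:200860213-200860235, minus strand: cgcccacttgacgtttccAGaag
CLK4 intron 3 acceptor at chr5:178617432-178617454, minus strand: ctgcccacttgccgttccAGaag
CLK3 intron 3 acceptor at chr15:74622100-74622122, plus strand: tcggggggcggtgcatgcAGaga
CLK2 intron 3 acceptor at chr1:155268793-155268815, minus strand: ccccccctgccccccgacAGcag

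In the 18 bases before the AG, pyrimidines numbered 7 in CLK3, 13 in CLK1, 14 in CLK4 and 15 in CLK2. Intron 3 was 1022 bases long in CLK1, 1121 in CLK4, 1894 in CLK3 and 692 in CLK2, and intron 4 was 378, 395, 277 and 348 bases long in the same order. The median over all those MANE Select introns was 1554 bases. The donors of the annotated retained introns of OGT and MAT2A follow, for comparison with the CLK donors.
OGT intron 4 donor at chrX:71544633-71544641, plus strand: aagGTaggt
MAT2A intron 2 donor at chr2:85541158-85541166, plus strand: gtgGTaggt
MAT2A intron 3 donor at chr2:85541375-85541383, plus strand: aagGTgtgt
MAT2A intron 6 donor at chr2:85542371-85542379, plus strand: cagGTaatg

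None of these 4 donors begins with GATGT. The retained introns of MAT2A were short, at 94, 255 and 191 bases, against 3271 bases for that of OGT. These sequences describe the genes, and which introns were present in the RNA of each fraction was not measured.

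The 4 libraries held between 21405486 and 24504232 counts on genes, and the totals overlapped between fractions. They include 31 genes without recovered counts, whose shares were filled in from the deposited mean and fold change. Those shares were 5787408 and 5120601 counts in cytoplasmic libraries a and b, and 1421192 and 1260360 in the nuclear ones. Recovered counts alone (18380547 and 16816671 cytoplasmic, 23083040 and 20145126 nuclear) did not overlap. Scaling to equal library totals rests on the filled-in totals. Which replicate number each library carries is not known, so the libraries are called a and b within a fraction, and a letter pairs nothing between fractions. The fraction markers separated in the direction of their labels: MALAT1 (11.1-fold), NEAT1 (8.46-fold) and KCNQ1OT1 (18.7-fold) were higher in the nuclear libraries, and GAPDH, ACTB, RPLP0 and TPT1 were between 6.39-fold and 13.7-fold higher in the cytoplasmic libraries. Of 5 markers of the line, VIM, KRT8, KRT18 and NEFM had at least 394 counts in every library and PAX2 had between 11 and 177. Of 5 markers of other cell types, CD3E, ALB and PTPRC had at most 3 counts in a library, PECAM1 had between 2 and 12, and COL1A1, a collagen gene, had between 186 and 252.

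Among the 7 members, 5 were higher in the nucleus, 0 were higher in the cytoplasm and 2 did not pass the threshold of an adjusted p-value of 0.01 (limma, adjusted over all genes tested). Over all genes tested, 6904 of 17658 (39.1%) were higher in the nucleus and 6602 (37.4%) were higher in the cytoplasm by the same test. The median log2 difference of the members, cytoplasm over nucleus, was -0.95, against -0.03 for all genes tested and 0.16 for the 13683 protein-coding genes tested. CLK4, CLK1, OGT and CLK2 were between 1.93-fold and 3.25-fold higher in the nucleus, OGA was 1.39-fold higher there, and CLK3 and MAT2A did not differ beyond the threshold. These values are set by size factors, which place the middle of all genes near 0. With every library instead scaled to the same total, all values fell by 0.66 on the log2 scale, all 7 members were higher in the nucleus and passed the threshold, and 53.2% of all genes were higher in the nucleus.

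**Figure D2:**
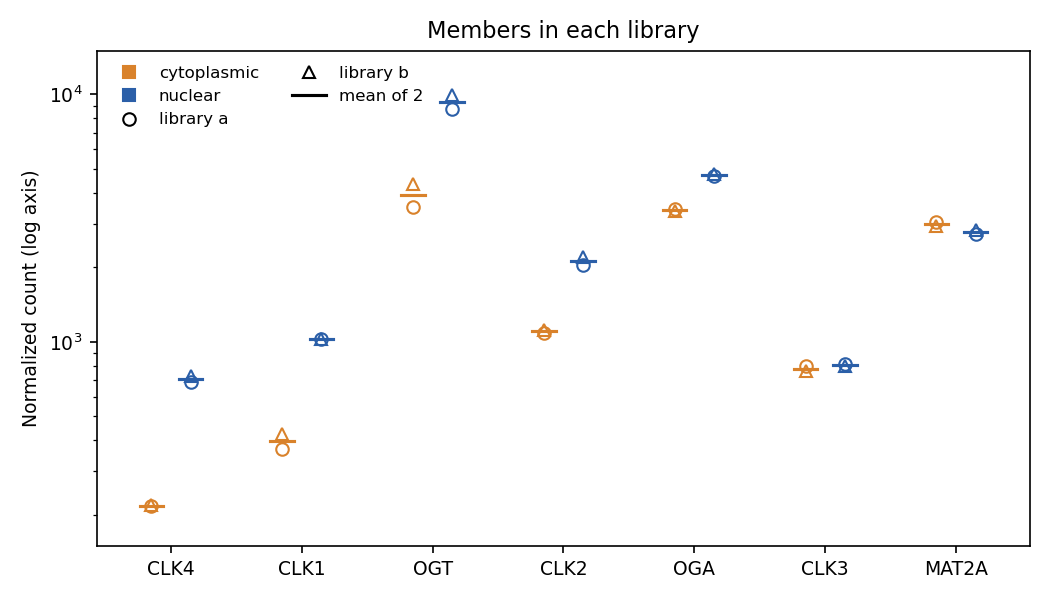
Normalized counts (log axis) of the 7 members in each library, cytoplasmic in orange and nuclear in blue, with library a as circles, library b as triangles and the mean of 2 libraries as a bar. On this size-factor scale the nuclear libraries lie above the cytoplasmic ones for CLK4, CLK1, OGT, CLK2 and OGA, lie close to them for CLK3, and lie below them for MAT2A, whose sign turned with equal library totals.

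CLK4 had the lowest counts of the members and the widest difference. Its normalized counts were 216.9 and 218.7 in cytoplasmic libraries a and b, and 690.6 and 728.2 in nuclear libraries a and b. Both nuclear libraries were far above both cytoplasmic ones, and the libraries of a fraction were close to each other. The log2 difference was -1.70 ± 0.12 (SE, n = 2 per fraction), a 3.25-fold higher nuclear level by size factors (limma, adjusted p = 1.38e-09). The lowest count, 165 in cytoplasmic library b, has an exact Poisson 95% interval of 141 to 192, which covers counting error only. Among the protein-coding genes tested, 13.7% had a lower value than CLK4.

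CLK1, whose truncated form from transcripts without exon 4 lacks the catalytic domain, came next. It had normalized counts of 369.3 and 424.1 in the cytoplasmic libraries and 1022 and 1026 in the nuclear libraries. The nuclear libraries almost coincided, and the cytoplasmic ones lay well below them. The log2 difference was -1.37 ± 0.12 (SE, n = 2 per fraction), a 2.58-fold higher nuclear level by size factors (limma, adjusted p = 9.29e-09).

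CLK2 differed by less than CLK1 and CLK4. CLK2 had normalized counts of 1085 and 1118 in the cytoplasmic libraries and 2052 and 2198 in the nuclear libraries. No cytoplasmic library reached a nuclear one, and the log2 difference was -0.95 ± 0.10 (SE, n = 2 per fraction), or 1.93-fold (limma, adjusted p = 2.23e-07). CLK2 has a pseudogene copy, CLK2P1, and 6.13% of the 50-base windows of its transcript were found there too, so a small part of its reads may be shared.

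CLK3 stood apart from the other CLK genes. The values were normalized counts of 797.3 and 760.7 in the cytoplasmic libraries and 816.6 and 798.9 in the nuclear libraries. The fractions were nearly level, with a gap of less than 2 normalized counts between the highest cytoplasmic and the lowest nuclear library. The log2 difference was -0.05 ± 0.11 (SE, n = 2 per fraction; limma, adjusted p = 0.657), and it was -0.71 with equal library totals (limma, adjusted p = 1.72e-05). Other genes, EDC3 among them, cover 37.81% of the span of CLK3, all of it on the opposite strand. Stretches with more than 1 gene were removed before counting, so a larger part of CLK3 than of any other member may have gone uncounted, and whether this bears on its value was not tested. Of the 50-base windows of its transcript, 3.32% were also found in the gene ENSG00000276667. The range of the 4 cytoplasmic-to-nuclear library pairs was -0.10 to -0.0028 for CLK3 and did not overlap that of CLK2 (-1.02 to -0.87), a difference between genes that was not tested.

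OGT, which adds the O-GlcNAc mark, had the highest nuclear level of the members. Normalized counts of OGT were 3521 and 4341 in the cytoplasmic libraries and 8685 and 9928 in the nuclear libraries. The libraries of a fraction were further apart than for any other member on the log2 scale, and the nuclear ones were still both far above the cytoplasmic ones. The log2 difference was -1.25 ± 0.13 (SE, n = 2 per fraction), a 2.37-fold higher nuclear level by size factors (limma, adjusted p = 1.23e-07).

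OGA, which removes the mark, differed less. Its normalized counts were 3437 and 3382 in the cytoplasmic libraries and 4682 and 4768 in the nuclear libraries. The 2 libraries of each fraction were close, and the groups did not overlap. The log2 difference was -0.47 ± 0.11 (SE, n = 2 per fraction), a 1.39-fold higher nuclear level by size factors (limma, adjusted p = 0.000647). Without nuclear library b, the adjusted p of OGA was 0.012 and it did not pass the threshold, whereas its log2 difference was -0.46. The pair ranges of OGT (-1.50 to -1.0002) and OGA (-0.50 to -0.45) did not overlap, and the difference between the writer and the eraser of the mark was not itself tested.

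MAT2A, the enzyme that makes SAM in most tissues, was the member with the highest cytoplasmic level for its transcript length. Its normalized counts were 3046 and 2947 in the cytoplasmic libraries and 2723 and 2822 in the nuclear libraries. Both cytoplasmic libraries were slightly above both nuclear ones, by less than the test could separate. The log2 difference was 0.11 ± 0.10 (SE, n = 2 per fraction; limma, adjusted p = 0.321). Its sign turned with the scaling: it was -0.55 with equal library totals (limma, adjusted p = 0.000149) and -0.05 with the median of protein-coding genes set to 0 (limma, adjusted p = 0.672). Pseudogene copies held 2.75% of the 50-base windows of its transcript.

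**Figure D3:**
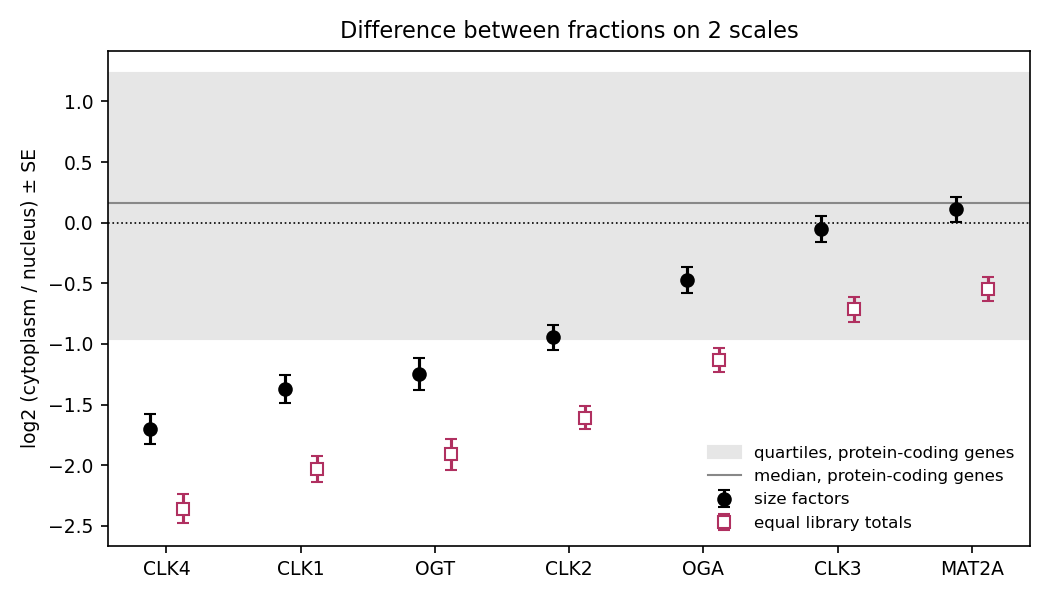
Log2 difference of each member, cytoplasm over nucleus, with its SE (n = 2 per fraction), by size factors (filled circles) and with equal library totals (open squares), over the median (0.16) and quartiles of the protein-coding genes tested. CLK3 and MAT2A lie near 0 by size factors, and all 7 members lie below 0 with equal totals.

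From the most nuclear to the most cytoplasmic, the order was CLK4, CLK1, OGT, CLK2, OGA, CLK3 and MAT2A. The pair ranges of CLK1 (-1.47 to -1.27) and OGT overlapped, as did those of OGT and CLK2. The other neighbours in the order had ranges that did not overlap. These ranges take each gene alone, although all genes were measured in the same libraries. Overlap therefore cannot show that neighbours were alike, and no difference between neighbours was tested. Per kb of the MANE Select transcript, the mean cytoplasmic level was 1060 normalized counts for MAT2A, 723 for OGT, 659 for OGA, 511 for CLK2, 420 for CLK3, 215 for CLK1 and 87.0 for CLK4. The mean nuclear level on this per-length scale was 1710 for OGT, 986 for CLK2, 984 for MAT2A, 913 for OGA, 554 for CLK1, 436 for CLK3 and 283 for CLK4. Per kb of transcript, OGT thus ranked above MAT2A in the nucleus and below it in the cytoplasm. On the same scale CLK1 ranked above CLK3 in the nucleus and below it in the cytoplasm. Intronic reads are part of these levels, which raises the values of genes with long introns. Per kb of gene span, neither pair changed order between the fractions. MAT2A was then above OGT in the nucleus (453 against 217 normalized counts) and in the cytoplasm (490 against 91.8). CLK1 was above CLK3 in both fractions on the span scale. Both changes of rank therefore depended on the length used.

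Gene span moved with the difference over all protein-coding genes. Intronic reads were part of the counts, so each member was set beside genes whose span was within 1.5 times its own. Over 13679 protein-coding genes, span and the log2 difference had a Spearman correlation of -0.663, a description across genes that share the same 4 libraries. The 2281 genes near CLK1 in span had a median log2 difference of 1.16, and 6.01% of them were lower than CLK1. Of the 2631 genes near CLK2, with a median of 0.92, 9.12% were lower than it. Among 3122 genes near CLK4, with a median of 0.45, 6.57% were lower than it.

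Of the 3264 genes near OGT, with a median of 0.14, 12.5% were lower than it, and its difference from that median was -1.38. OGA differed by -0.79 from the median of its 3283 neighbours, of which 25.2% were lower. CLK3 was close to the median of its 3210 neighbours, 0.07, and 45.4% of them were lower. The MANE Select transcript of CLK3 covers 14.37 kb of the 46.92 kb, and among 2660 genes with a MANE Select extent within 1.5 times that, with a median of 0.88, 22.6% were lower than CLK3. This second comparison was chosen after the values were seen, and it moved no other member by over 1.5 times. MAT2A, level between the fractions, is short, and its 1395 neighbours had a median of 1.64, so that 14.5% of them were lower than MAT2A. Beside genes of like span, then, the members other than CLK3 lay toward the nuclear end and the place of CLK3 turned on which extent was used, which is a description and not a test.

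**Figure D4:**
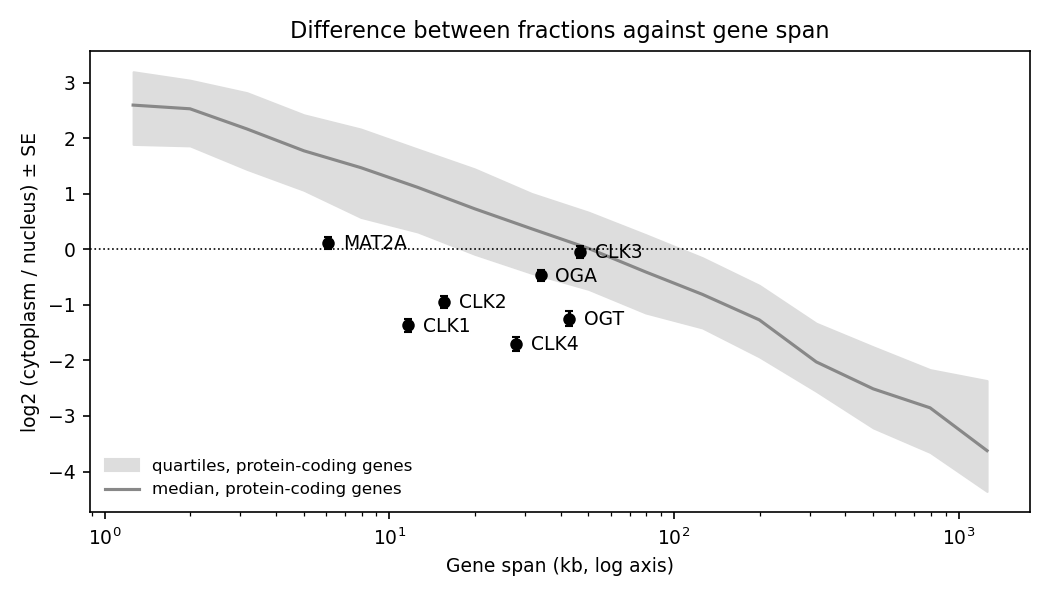
Log2 difference, cytoplasm over nucleus, against gene span in kb (log axis), with the median and quartiles of protein-coding genes in bins of span (line and band) and the members with their SE (points, n = 2 per fraction). CLK1, CLK2, CLK4, OGT and MAT2A lie under the band of quartiles, OGA lies at its lower edge and CLK3 lies inside it.

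Annotated retained introns were also set against the difference over all genes. The 3601 tested protein-coding genes with at least 1 had a median log2 difference of 0.36, and 30.9% were higher in the nucleus. The 9691 without had a median of 0.03, and 37.3% were higher in the nucleus. Their median spans were 26.4 kb and 43.6 kb. Within the members, CLK4, CLK1 and OGT, the 3 most nuclear by log2 difference, have annotated retained introns, as do CLK3 and MAT2A, which did not pass the threshold, whereas CLK2 and OGA have none and were higher in the nucleus. With 7 members no relation was tested.

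Other RNA-processing genes with described retained or detained introns were also mostly higher in the nucleus: 10 of 15 were, 4 were higher in the cytoplasm, and the median log2 difference was -1.18, against 39.1% higher in the nucleus, 37.4% higher in the cytoplasm and a median of -0.03 for all genes tested. The cytoplasmic count was 1 with equal library totals and 2 with the protein-coding median at 0 or without either nuclear library. LUC7L3, a factor associated with the U1 snRNP, was lowest at -2.78 ± 0.11, followed by RSRP1 at -2.49 ± 0.14 and PNISR at -2.35 ± 0.13 (SE, n = 2 per fraction; limma, adjusted p of at most 6.51e-11). ARGLU1 (-1.93), LUC7L (-1.86), CCNL1 (-1.86), CCNL2 (-1.85), TRA2A (-1.18), SFSWAP (-1.17) and SRSF5 (-0.40) were the other genes higher in the nucleus. SRSF5 was close to the threshold (limma, adjusted p = 0.00938). The nuclear count of the list was 9 with a pseudocount of 0.5, with no minimum mean or with Bonferroni adjustment. CLK1 and CLK4 thus lay within the range of the cyclin L genes and TRA2A on this scale. SRSF7, an SR protein, was highest at 1.13, and PABPN1 (1.07), NXF1 (0.37) and SNRNP70 (0.36) were also higher in the cytoplasm by size factors. With equal library totals NXF1 turned to -0.29 and SNRNP70 to -0.30, and of these 4 genes SRSF7 alone passed. Spans ran from 13.6 kb (CCNL2) to 96.0 kb (RSRP1) for the 10 nuclear genes. Those of the 4 cytoplasmic genes ran from 4.71 kb (PABPN1) to 23.2 kb (SNRNP70), and whether span bears on the direction was not tested.

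The other kinases of SR proteins and the relatives of the CLK family were split. Of 12 tested, 4 were higher in the nucleus and 7 in the cytoplasm (3 with equal library totals), with a median of 0.63 that became -0.0334 with equal totals. Over all genes tested, 39.1% were higher in the nucleus and 37.4% in the cytoplasm, so the nuclear share of the list, 33.3%, was near that of all genes. With equal totals, 4208 of 17658 genes were higher in the cytoplasm. SRPK2, a cytosolic and nuclear SR protein kinase, was lowest at -2.91 ± 0.12 (SE, n = 2 per fraction), and DYRK1A (-1.61), PRPF4B (-0.95) and SRPK1 (-0.51) were the others higher in the nucleus. PRPF4B, a kinase of the spliceosome, had the same difference as CLK2 to 2 decimals. DYRK3 was highest at 1.36 ± 0.13 (SE, n = 2 per fraction), with DYRK2 (1.27), DYRK1B (1.07), SRPK3 (0.91), HIPK1 (0.77), DYRK4 (0.71) and HIPK3 (0.54) also higher in the cytoplasm, of which HIPK3 turned to -0.12 with equal library totals. Spans ran from 43.7 kb (PRPF4B) to 289 kb (SRPK2) for the 4 nuclear genes. Those of the 7 cytoplasmic genes ran from 8.85 kb (DYRK1B) to 100 kb (HIPK3). Genes of this list and of the other lists were not set beside genes of like span.

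Genes that make the sugar donor of OGT, or encode its substrates, were mostly higher in the cytoplasm by size factors but not with equal library totals. Of 8 genes of the hexosamine and O-GlcNAc pathway tested, 6 were higher in the cytoplasm (1 with equal totals) and 1 in the nucleus (2 with equal totals), with a median of 0.63 that became -0.0340 with equal totals. Over all genes tested, 37.4% were higher in the cytoplasm and 39.1% in the nucleus. With equal totals these were 4208 of 17658 genes and 53.2%. GNPNAT1, which acetylates glucosamine phosphate, was highest at 1.77 ± 0.11 (SE, n = 2 per fraction), and PGM3 (0.88), NUP62 (0.82), UAP1 (0.82), HCFC1 (0.44) and GFPT1 (0.43) were also higher in the cytoplasm, of which HCFC1 turned to -0.22 and GFPT1 to -0.23 with equal totals. HCFC1 and NUP62 are known substrates of OGT. NAGK, which salvages the sugar, was the 1 gene higher in the nucleus, at -0.49 (limma, adjusted p = 0.006), and it did not pass without cytoplasmic library a or without either nuclear library.

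Genes of the methionine and SAM cycle differed widely around MAT2A. Of 10 tested of 11 listed, 2 were higher in the nucleus, 4 in the cytoplasm and 4 did not pass, with a median of -0.13, against 39.1% of all genes tested in the nucleus and 37.4% in the cytoplasm. With equal library totals 6 were higher in the nucleus and 2 in the cytoplasm, with a median of -0.79. Over all genes tested on that scale, 53.2% were higher in the nucleus and 4208 of 17658 in the cytoplasm. With the protein-coding median at 0, 5 genes of the list were higher in the nucleus, against 7531 of all genes tested. AHCY, which breaks down the product of methylation reactions, was highest at 2.60 ± 0.11 (SE, n = 2 per fraction), and MAT2B, the regulatory partner of MAT2A, was 1.44. AHCYL2 was lowest at -2.08 ± 0.11 (SE, n = 2 per fraction) and MTAP was also higher in the nucleus at -0.55. These 2 genes span 205 kb and 135 kb, and the 4 genes higher in the cytoplasm between 16.4 kb (MAT2B) and 39.0 kb (AHCYL1). MAT1A, the liver enzyme, was below the minimum mean of 10 normalized counts and was not tested. The gap between MAT2A at 0.11 and its partner MAT2B was not tested.

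**Figure D5:**
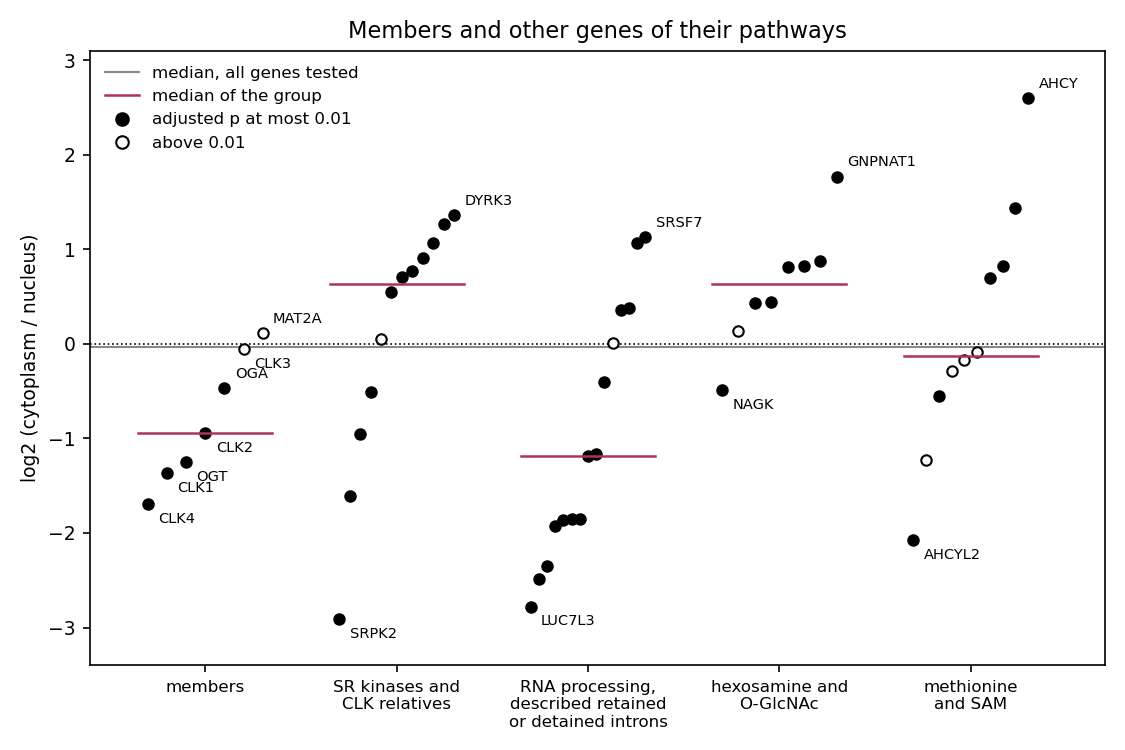
Log2 difference, cytoplasm over nucleus, of the members and of the tested genes of 4 lists, with filled points at an adjusted p of at most 0.01 (limma), the median of each group in red and the median of all genes tested (-0.03) in grey. The members and the RNA-processing genes lie mostly below 0, and the SR kinase and hexosamine lists have medians of 0.63 by size factors, which became -0.0334 and -0.0340 with equal library totals.

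For each member, the protein-coding gene of like level (mean normalized count within 1.5 times) with the most alike pattern over the 4 libraries was found by the smallest root-mean-square difference of the centred log2 values. For CLK1 it was MYLK (0.03, of 3148 genes compared), for CLK2 TAF1D (0.02, of 3129), for CLK3 KCTD9 (0.01, of 3205) and for CLK4 SRCIN1 (0.02, of 2520). For OGT it was PPP6R3 (0.10, of 556), for OGA MAN1B1 (0.02, of 1257) and for MAT2A PRR14L (0.02, of 2053). With 4 libraries in 2 fractions such likeness reflects mainly the difference between the fractions, and OGT, with fewer genes of its level, had the least close match.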

How the data were processed

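Per the labels and the study's methods, reads from nuclear and cytoplasmic RNA (2 libraries each, ribosomal RNA depleted, stranded kit) were aligned to hg38 with STAR and counted over exons and introns with featureCounts 2.0.2, in an annotation without stretches covered by more than 1 gene and without readthrough transcripts. The table of the authors gives each gene a single row, without library values. Its mean normalized count is a deposited signal over 4 libraries. The deposited log2 fold change, its SE, a Wald statistic, a deposited p-value and its adjusted form are the authors' DESeq2 comparison of the fractions. These columns of the authors' comparison are not reported here. The fold change and its SE were used to find the counts behind each row, and no call rests on the deposited p-values. The fold change also filled in the library totals for 31 genes without recovered counts.

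Counts per library were recovered from the table. The mean of a gene is a whole-number combination of 4 steps, each the inverse of 4 times a size factor (0.853 and 0.755 cytoplasmic, 1.34 and 1.19 nuclear). The fit of the authors was rebuilt, and the combination was taken whose fold change matched the deposited one to 1e-09 and that no other combination matched. Of 23333 genes with an adjusted p-value, 23302 (99.867%) had exactly 1 such combination, 18 had several, 1 had none, and 12 with a mean over 50000 were not searched. For the members the match was within 4.34e-10 and the next combination was at least 2.35e-07 away. Size factors computed anew from the recovered counts differed by at most 0.144%. The fraction of a library follows from the sign of the deposited fold change. Its replicate number is not known.

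Log2(count / size factor + 1) was compared between the fractions with limma 3.58.1 (lmFit and eBayes with trend, R 4.3.3) for genes with a mean of at least 10 normalized counts, with Benjamini-Hochberg adjustment over 17658 genes and calls at 0.01. A positive value is cytoplasmic. Fold changes are on this log2(value + 1) scale. Gene models came from GENCODE 44, and splice sites from hg38. Named genes are the members, called or extreme genes of the lists, the fraction markers and the gene of most alike pattern per member. The members and lists were chosen with earlier results of these data known. Equal totals, centring, other pseudocounts and minimum means, voom weights, Bonferroni adjustment and leaving out each library were tried.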

Additional observations from a re-analysis of the deposited data

How the results depend on the processing

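Scaling had the widest effect. With library totals made equal, 4208 genes passed as cytoplasmic, against 6602, MAT2A turned to -0.55 and CLK3 at -0.71 passed the threshold. The list medians became -0.0334 for the SR kinases, -0.0340 for the hexosamine genes, -0.79 for the methionine genes and -1.84 for the RNA-processing genes. Genes higher in the cytoplasm then numbered 3, 1, 2 and 1 in these lists, and genes higher in the nucleus 2 in the hexosamine and 6 in the methionine list. On this scale 53.2% of all genes were higher in the nucleus. With the protein-coding median at 0, MAT2A was -0.0483, the medians were 0.47, 0.47, -0.29 and -1.34 in the same order, 5 methionine genes were higher in the nucleus and 2 RNA-processing genes in the cytoplasm. With Bonferroni adjustment, 3853 genes were higher in the cytoplasm and 3676 in the nucleus, and OGA at -0.47 did not pass; 3, 2, 2 and 1 list genes were then higher in the cytoplasm, and 0 hexosamine genes and 1 methionine gene in the nucleus. With no minimum mean, the methionine median was -0.0818, 0 hexosamine genes were higher in the nucleus and 2 RNA-processing genes in the cytoplasm. With a minimum of 50 the methionine median was -0.0818. Other pseudocounts (0.5 and 5) and voom weights moved none of the 23 results, where a count was called moved only beyond 1.5 times. Methionine genes higher in the nucleus numbered 3 with a pseudocount of 5 or voom weights, against 2. RNA-processing genes higher in the nucleus numbered 9 with a pseudocount of 0.5, against 10. Leaving out 1 library at a time gave OGA between -0.48 and -0.46, and it did not pass without nuclear library b (adjusted p = 0.012). The medians then ranged from 0.51 to 0.71 for the SR kinases, from 0.52 to 0.66 for the hexosamine genes and from -1.29 to -1.14 for the RNA-processing genes. Hexosamine genes higher in the nucleus ranged from 0 to 1 and RNA-processing genes higher in the cytoplasm from 2 to 3. No paired analysis was possible because the replicate number of each recovered library is not known. Depth limits the members little, since their lowest count was 165.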
